A study of Mus musculus with 27 samples.

Results

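Among the fibroblasts of the mouse aorta after 28 days of angiotensin II (Ang II) infusion, one group expressed Fmod, Comp and Thbs4, genes best known from tendon. These cells were defined in 4 single-cell RNA libraries by counting detected genes. A barcode was kept with at least 500 genes, at least 1000 unique molecular identifiers (UMIs, each standing for 1 captured RNA molecule) and at most 15% of its UMIs from mitochondrial (mt-) genes. A kept barcode passed a fibroblast gate with at least 10 UMIs of Col1a1, Col1a2, Col3a1 and Dcn together and none of Ptprc, Pecam1 or Myh11, the marker genes of leukocytes, endothelium and smooth muscle. In each gated cell the detected genes of 4 sets of 5 were counted, namely set A (Pi16, Cd248, Sema3c, Gfpt2, Has1), set B (Fmod, Comp, Thbs4, Col8a1, Cpxm2), set C (Penk, Cxcl14, Ccl11, Inmt, Sult1e1) and set D (Cilp, Sfrp4, Prg4, Hmcn2, Dkk2). A cell was a set B fibroblast when at least 2 set B genes were detected and that number exceeded those of sets A, C and D. The rule found 1570 cells among 9968 gated fibroblasts and 43812 kept cells, against 3848 cells of set A, 571 of set C and 452 of set D. Expression of the set genes was read to choose these cells, so their high level in the cells is a description and not a finding.

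The series holds 27 samples, all from C57BL/6 mice given Ang II for 28 days, and every comparison below is between mice that had received it. The single-cell libraries came from digested non-stripped aorta of 2 Cre and 2 TKO samples. Cre was compared with TKO in bulk in 3 materials, with 3 libraries of each genotype from fibroblasts isolated from aorta, 3 of each from non-stripped aorta, and 4 Cre and 2 TKO libraries from stripped aorta. A further 5 bulk libraries came from non-stripped TKO aorta of mice that also received control IgG (3) or a monoclonal antibody against IL-9 (2). The labels define neither Cre nor TKO, do not name the cells in which a recombinase acted, and give no age, sex or definition of stripping. The series title places a KLF10 and IL-9 axis of CD4+ T cells in perivascular fibrosis. The stripped group is titled as non-stripped but described as stripped in its remaining fields, which were followed. Nothing in the labels says that the samples of a group came from separate animals, so p-values measure only the spread between these samples, which may be technical.

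Tendon fibroblasts, or tenocytes, build a matrix of parallel collagen fibrils that carries load along one axis. Fibromodulin (Fmod), a small leucine-rich proteoglycan, and cartilage oligomeric matrix protein (Comp), a pentameric thrombospondin, bind fibrillar collagen and regulate its assembly into fibrils. Thrombospondin 4 (Thbs4), a close relative of Comp, is a matrix protein of tendon and of the muscle attachment, and Col8a1 encodes a short-chain collagen of the vessel wall. Cpxm2 encodes a secreted member of the carboxypeptidase family. Fibroblasts of the aortic adventitia make the collagenous outer layer of the vessel, whose thickening is known as perivascular fibrosis.

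The promoters of the set B genes are shown because these genes chose the cells and are followed together through the bulk libraries. RefSeq tables of GRCm38.p6 held a promoter for 4 of the 5, each 300 bases long, from 250 before to 50 after the annotated start. The interval was chr1:134037004-134037303 on the plus strand for Fmod, chr13:92794769-92795068 on the minus strand for Thbs4, chr16:57754688-57754987 on the minus strand for Col8a1 and chr7:132154692-132154991 on the minus strand for Cpxm2. Capitals mark matches to GGAATG, the core letters bound by TEAD factors, on either strand.
Fmod: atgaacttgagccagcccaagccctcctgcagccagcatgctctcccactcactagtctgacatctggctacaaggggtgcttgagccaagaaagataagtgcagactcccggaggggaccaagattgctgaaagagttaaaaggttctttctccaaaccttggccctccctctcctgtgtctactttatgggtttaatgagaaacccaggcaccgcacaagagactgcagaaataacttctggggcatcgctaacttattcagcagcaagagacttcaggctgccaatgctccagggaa
Thbs4: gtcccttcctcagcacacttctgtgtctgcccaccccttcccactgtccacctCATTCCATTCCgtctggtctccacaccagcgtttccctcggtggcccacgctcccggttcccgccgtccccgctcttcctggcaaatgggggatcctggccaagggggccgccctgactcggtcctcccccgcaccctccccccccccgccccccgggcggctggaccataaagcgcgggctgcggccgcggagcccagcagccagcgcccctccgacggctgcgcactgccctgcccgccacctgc
Col8a1: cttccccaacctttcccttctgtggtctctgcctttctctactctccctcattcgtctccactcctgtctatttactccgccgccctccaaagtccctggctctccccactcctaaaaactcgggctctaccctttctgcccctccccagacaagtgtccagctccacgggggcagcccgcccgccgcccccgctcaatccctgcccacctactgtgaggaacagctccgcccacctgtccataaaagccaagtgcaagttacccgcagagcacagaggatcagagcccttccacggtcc
Cpxm2: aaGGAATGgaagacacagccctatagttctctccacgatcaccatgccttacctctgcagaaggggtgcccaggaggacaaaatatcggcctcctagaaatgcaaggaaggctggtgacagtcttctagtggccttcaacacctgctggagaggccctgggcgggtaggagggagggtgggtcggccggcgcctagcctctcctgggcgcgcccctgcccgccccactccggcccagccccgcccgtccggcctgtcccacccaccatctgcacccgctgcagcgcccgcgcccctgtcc
Thbs4 held 2 matches that share 1 base, both on the strand opposite to the one printed, with first bases at -197 and -192 from the start, and Cpxm2 held 1 at -248. Fmod and Col8a1 held none. GGAATG was present in 14.7% of all 32851 mouse promoters of this length. Neither the TATA box (TATAAA, in 13.6% of all promoters) nor the AP-1 motif (TGANTCA, 7.81%) was found in the 4 promoters. A match of 6 letters is a description of the sequence and says nothing of binding. The gene bodies lie, in the GENCODE vM21 annotation of GRCm38, at chr1:134037254-134048277 for Fmod, chr8:70373558-70382066 for Comp, chr13:92751590-92794818 for Thbs4, chr16:57624258-57754737 for Col8a1 and chr7:132032687-132154739 for Cpxm2.

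Values of the 4 single-cell libraries are given below in the order Cre replicate 1, Cre replicate 2, TKO replicate 1 and TKO replicate 2. The libraries held 25922726 to 60910282 UMIs and the bulk libraries 17179257 to 38633457 counts. Median UMIs per kept cell were 2768, 1683, 1593 and 1409, so Cre replicate 1 was the deepest. Median mitochondrial shares were 7.26%, 10.9%, 6.26% and 8.61%. Among the kept cells, 208 barcodes were found in more than 1 library, and 20 set B fibroblasts carried such a barcode. Klf10, the gene named in the series title, had 18, 5, 83 and 21 UMIs in the set B fibroblasts, which is 36.9, 36.0, 53.4 and 36.2 CPM (counts scaled to a common total, here that of the summed UMIs). TKO and Cre overlapped at this level (log2 fold change 0.31 ± 0.39 (SE), adjusted p = 0.999, edgeR's quasi-likelihood test with Benjamini-Hochberg adjustment). In cells with UMIs of Ptprc, Cd3e and Cd4 together, Klf10 was at 27.9, 22.5, 50.3 and 29.9 CPM, from 13, 5, 12 and 2 UMIs. In the bulk libraries Klf10 was at 20.6 to 73.3 CPM in all but the third non-stripped TKO library, where it was listed at 0 of 17359317 counts. Neither readout therefore showed a loss of Klf10 that would check the TKO label, apart from that 1 library. Il9 had no UMI in the set B fibroblasts and Il9r had 0, 0, 0 and 2, where 3 counts would be 6.16, 21.6, 1.93 and 5.17 CPM.

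The set B fibroblasts made up a larger share of the gated fibroblasts in both TKO libraries than in either Cre library. There were 185, 80, 907 and 398 of them among 3443, 1108, 3480 and 1937 gated cells. The shares were 5.37% (95% exact Clopper-Pearson interval 4.64 to 6.18), 7.22% (5.77 to 8.91), 26.1% (24.6 to 27.6) and 20.5% (18.8 to 22.4), where the intervals cover counting error only. The mean share was 6.30% ± 1.31 (SD, n = 2) in Cre and 23.3% ± 3.90 (SD, n = 2) in TKO, a difference of 17.01 percentage points, and the groups did not overlap. An exact two-sided permutation test gave p = 0.333, the smallest value that 2 against 2 libraries can give, so the design cannot reach the usual threshold. As shares of all kept cells they were 1.28%, 1.22%, 5.90% and 5.36%. After each cell was thinned to 1000 UMIs they were 4.03%, 5.96%, 22.7% and 18.8% of the gated cells. With at least 3 set B genes required, they were 2.32%, 3.16%, 14.5% and 11.8%. The part of dissection and digestion in these shares was not tested.

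**Figure D1:**
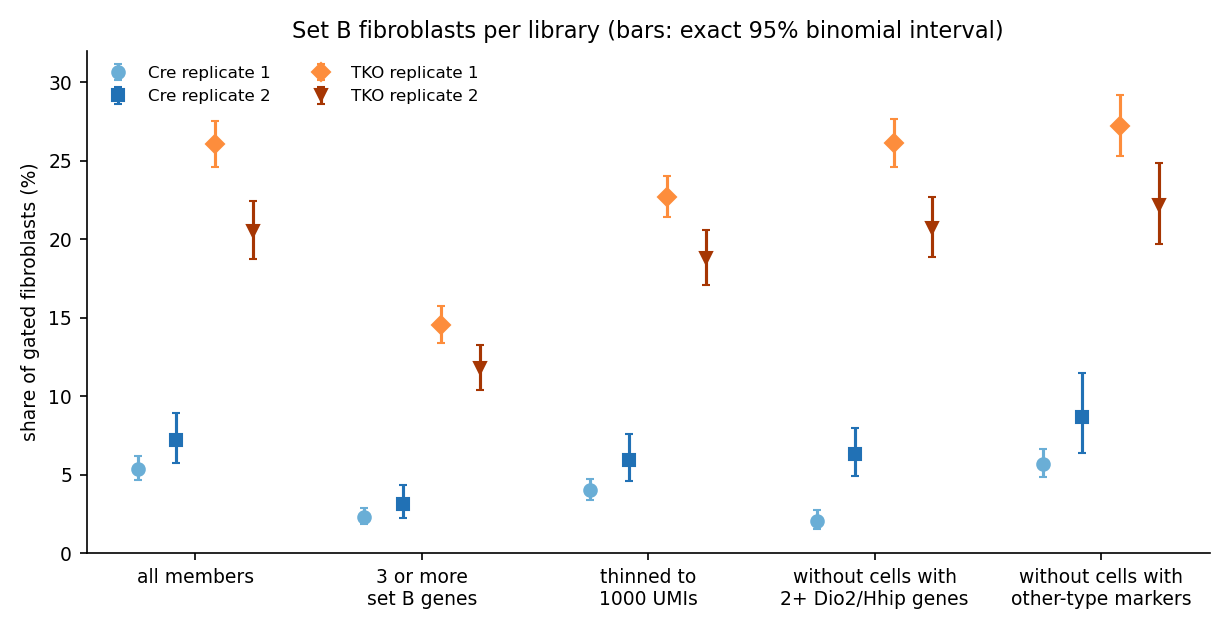
Share of set B fibroblasts among gated fibroblasts (percent, vertical axis) in each of the 4 single-cell libraries, under the rule as stated and under the alternative rules and cell filters. In each setting drawn, both TKO libraries lie above both Cre libraries.

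Each set B gene was detected in a different fraction of the cells. Fmod, which regulates the diameter of collagen fibrils, was at 1529, 640, 881 and 1092 CPM and had a UMI in 76.8%, 52.5%, 60.3% and 66.3% of the set B fibroblasts. Its share of cells with a UMI was 3.34%, 1.86%, 6.21% and 3.73% in the cells of sets A, C and D together. Leukocytes, which should lack it, had a UMI of Fmod in 0.678%, 0.655%, 3.16% and 1.84% of cells with a Ptprc UMI, at median depths of 3030, 1940.5, 1681 and 1510 UMIs, against 2418, 1578, 1503 and 1329 in the set B fibroblasts. In the same leukocytes Comp had a UMI in 0.821%, 1.00%, 5.86% and 3.47% of cells and Col8a1 in 1.45%, 1.43%, 5.45% and 2.61%. For each of the 5 set B genes the share of leukocytes was higher in both TKO libraries than in the Cre libraries. The part of this RNA in the number of set B fibroblasts was not tested. Comp was at 503, 655, 828.6 and 1144 CPM and was detected in 45.9% to 67.6% of the cells. Thbs4, the least often detected of the 5, had a UMI in 16.2%, 23.8%, 21.9% and 26.6% of them, at 550, 389, 429 and 655 CPM. Col8a1 was lowest in Cre replicate 1, at 433 CPM against 1345, 1498 and 1311 in the other libraries. Cpxm2 varied least, between 445 and 560 CPM. The set B fibroblasts held 38.5%, 30.2%, 42.7% and 53.5% of all Fmod UMIs of the kept cells, so a large part of the Fmod RNA lay in other cells.

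**Figure D2:**
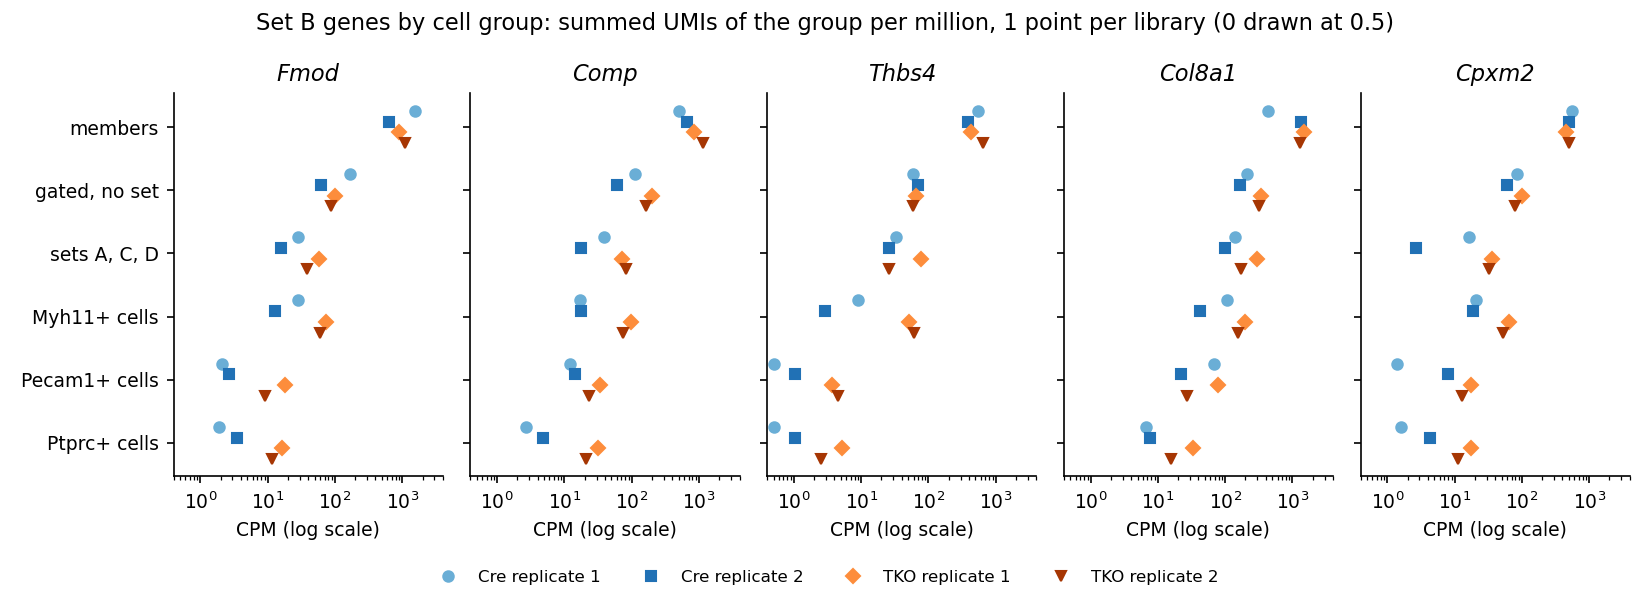
Level of the 5 set B genes (CPM of summed UMIs, logarithmic axis, 0 drawn at 0.5) in the set B fibroblasts and in other cells of each single-cell library, 1 point per library. The rule chose the cells by these genes, so the separation from sets A, C and D shows the rule at work and is no test of it.

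Because the rule used all 5 genes, each was also read in cells chosen by the other 4, by the same rule without it. Fmod was then at 2123, 553, 818 and 1004 CPM in 87, 58, 698 and 305 cells, and 41.6, 24.5, 8.62 and 13.4 times as high as in the other assigned cells. Cpxm2 was 12.7, 87.0, 4.79 and 7.32 times as high, and Comp 5.30, 22.5, 4.59 and 8.80 times. Thbs4 was 5.59, 5.20, 2.77 and 11.1 times as high. Each of these 4 genes was thus higher in cells chosen without it, in each library. Col8a1 was 10.6, 3.72 and 4.17 times as high in Cre replicate 2 and the TKO libraries, but 1.28 times in Cre replicate 1, at 202 against 159 CPM. Of the cells 80, 35, 506 and 228 had 3 or more set B genes, and the rest had the 2 that the rule asks for. Just outside it lay 102, 12, 173 and 68 gated cells with at least 2 set B genes but as many of another set, and 38, 31, 125 and 63 cells with 1 set B gene and no gene of another set. Col11a1, which the rule did not use, was at 229, 420, 253 and 356 CPM in cells with 3 or more set B genes, at 19.5, 13.0, 71.3 and 75.8 CPM in those with 2, and at 0, 42.8, 27.0 and 23.0 CPM in the cells with 1. It was at 11.9, 416, 94.8 and 71.2 CPM in the cells as high in another set. Mfap4, which the rule did not use either, was at 1316, 760, 1020 and 942 CPM in cells with 3 or more set B genes, at 722, 545, 826 and 758 CPM in those with 2, at 492, 663, 389 and 402.2 CPM in the cells with 1, and at 814, 458, 749 and 552 CPM in the cells as high in another set. Col11a1 in the cells with 2 set B genes was thus nearer to the cells with 1 in each library, while Mfap4 was nearer to the cells with 3 or more in both TKO libraries.

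The comparison with other fibroblasts used the 4871 cells of sets A, C and D. Of these 3848 were of set A, so the summed values of the other classes weigh set A most. The same cells and genes served to build the classes, so it is given as a description, with no test. Of 3378 genes with at least 50 CPM on the higher side, and with the set and gate genes left out, 72 (2.13%) were at least 2-fold higher and 123 (3.64%) at least 2-fold lower in the set B fibroblasts of all 4 libraries, after 5 CPM were added to both sides. The 25 genes that led the higher side included matrix genes such as Col11a1, Tnmd and Chad, and also the potassium channel genes Kcnma1 and Kcne4 and the amino acid transporter gene Slc7a2. Col11a1, a minor fibrillar collagen that nucleates fibrils in cartilage and tendon, was at 119, 194, 181 and 241 CPM against 0.548, 0.876, 10.4 and 9.14 CPM in the other classes. Tnmd, the gene of tenomodulin and a marker of mature tenocytes, was at 135, 79.1, 141 and 265 CPM against 3.01, 0.876, 10.8 and 13.3 CPM. Chad, the gene of the leucine-rich matrix protein chondroadherin, was at 164, 43.2, 26.4 and 53.4 CPM against 0.137, 0, 4.24 and 0.831 CPM. All 3 genes were higher in the set B fibroblasts of each library without overlap, but in the Cre libraries Chad lay in only a part of these cells, given below. Ecrg4, which encodes a secreted peptide precursor, was low in Cre replicate 1 at 57.5 CPM and high in the other libraries at 612, 685 and 1516 CPM. The matrix glycoprotein tenascin C (Tnc) was at 30.8, 79.1, 198 and 306.6 CPM against 3.97, 4.38, 24.5 and 11.6 CPM.

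**Figure D3:**
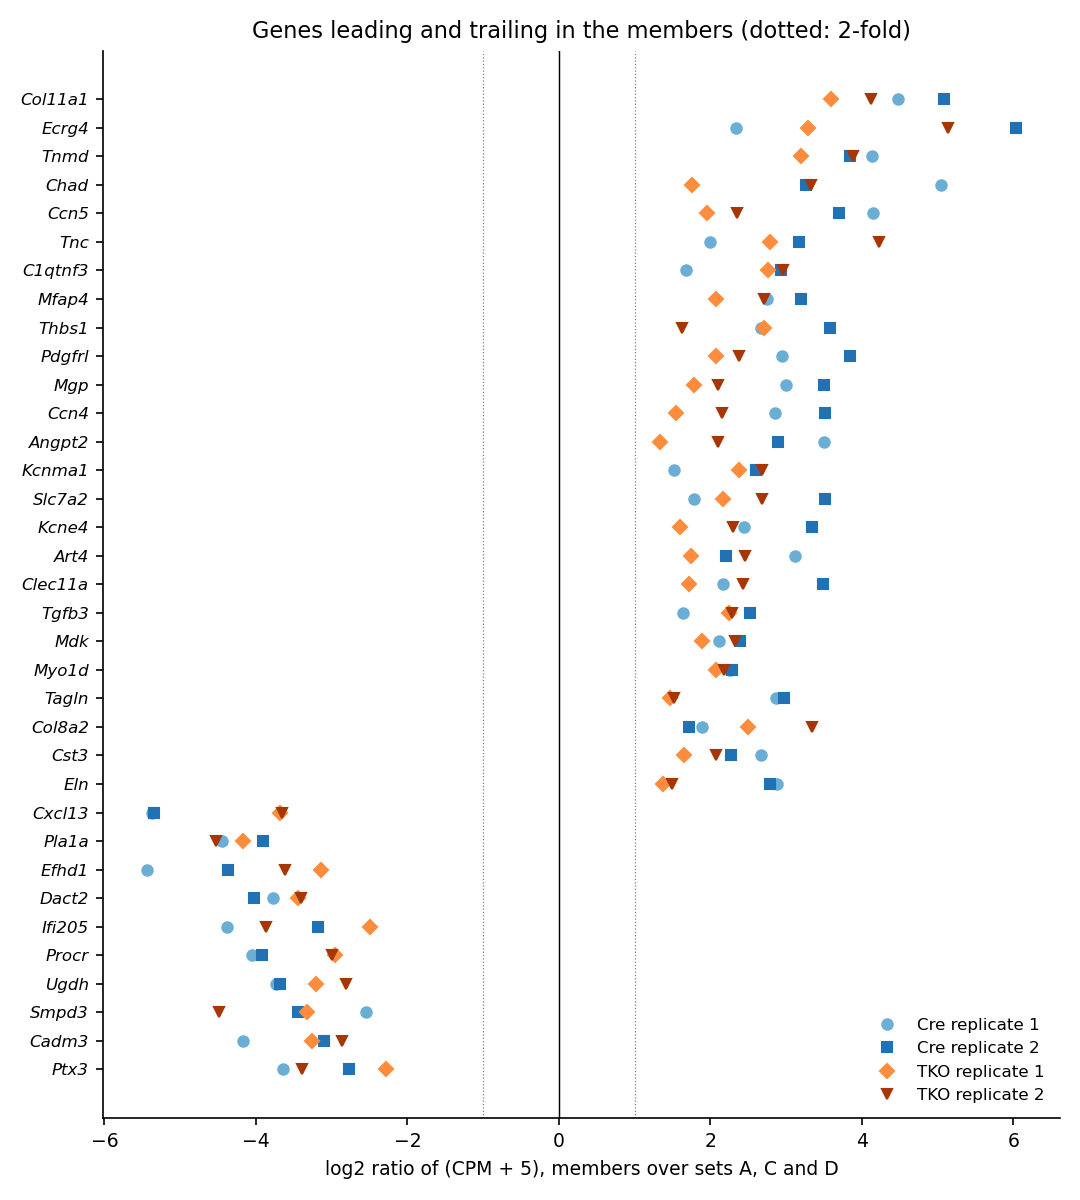
Log2 ratio of CPM in the set B fibroblasts over the fibroblasts of sets A, C and D together, with 5 CPM added to both sides. The 25 highest and 10 lowest genes are drawn, with 1 point for each of the 4 libraries. Col11a1 lies between 3.59 and 5.08.

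Of the 25 tendon and ligament genes listed for this tissue, 20 passed the level filter, 7 were at least 2-fold higher and 1 was lower, with a median log2 ratio of 1.30 against -0.07 over all genes. The higher ones included Bgn, the gene of the proteoglycan biglycan, at 4548, 2770, 3658 and 3443 CPM against 1408, 603, 1616 and 1013 CPM. Tppp3, a marker of the tendon sheath, was the lower one, at 39.0, 43.2, 39.2 and 24.1 CPM against 316, 222, 230 and 191 CPM. Scx, the transcription factor scleraxis that specifies tendon progenitors, was below the filter, at 18.5, 36.0, 47.6 and 34.5 CPM against 0.959, 3.50, 4.72 and 0.831 CPM. The tendon factor Mkx was at 20.5, 14.4, 16.1 and 13.8 CPM against at most 1.66 CPM. Scx rested on 9, 5, 74 and 20 UMIs, and no background from free RNA was measured for these low counts. Of the 28 cartilage genes only 4 passed the filter, and Mgp, an inhibitor of calcification made by cartilage and vessel wall, was the 1 called higher, at 14474, 8735, 7241 and 6511 CPM against 1800, 766, 2100 and 1510 CPM. Sox9, the master factor of cartilage, was at 51.3, 108, 75.2 and 145 CPM against 63.8, 41.2, 60.4 and 39.0 CPM, and Acan, the gene of the main cartilage proteoglycan, at 0, 28.8, 28.9 and 49.95 CPM. Chondrocyte markers summed to 55.4, 158, 152 and 202 CPM against 73.5, 42.0, 65.6 and 39.9 CPM in the other classes. They were thus higher in the set B fibroblasts of each library but Cre replicate 1. Of the 8 markers, 4 to 6 were at 0 in the set B fibroblasts of 3 of the libraries. The label of tendon-like cells thus rests on collagens, proteoglycans and Tnmd more than on the transcription factors.

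Among matricellular genes, which encode matrix proteins that signal rather than bear load, 7 of 20 were higher and 1 was lower, with a median log2 ratio of 1.13. Thbs1, an activator of latent TGF-beta, was at 745, 1007, 1023 and 391 CPM against 113, 79.7, 153 and 123 CPM. Ccn5 was at 566, 230, 262 and 177 CPM against 27.3, 13.1, 64.1 and 30.7 CPM, and Ccn2, the gene of connective tissue growth factor, at 1601, 576, 975 and 835 CPM against 228, 192, 382 and 349 CPM. The lower one was Tnxb, which encodes tenascin X of loose connective tissue. The elastic fibre list divided, with 3 of 16 genes higher and 4 lower. Elastin (Eln) was at 3676, 957, 1173 and 736 CPM against 494, 134, 449 and 257 CPM, and the microfibril-associated Mfap4 at 1004, 640, 943 and 866 CPM against 145, 65.7, 220 and 129 CPM. In set D alone the mean over libraries was 650 CPM for Eln and 423 CPM for Mfap4, against 1635 and 863 CPM in set B. On the lower side, fibrillin 1 (Fbn1) was at 552, 640, 600 and 412 CPM against 2159, 1395, 1638 and 1354 CPM. Genes of this list thus went both ways, with Mfap4 on the side of Eln. Of 13 other collagens 3 were higher (Col8a2, Col11a1 and Col16a1), and of 19 collagen folding and crosslinking genes 2 were higher, Plod2 and Lox, the latter the gene of lysyl oxidase that crosslinks collagen and elastin, at 655, 518, 672 and 338 CPM against 192, 65.7, 182 and 98.8 CPM. The matrix proteases had 2 of 15 lower and none higher, among them Adamts5, an aggrecan-cleaving protease, at 351, 130, 226 and 122 CPM against 1476, 952, 941 and 824 CPM.

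Signalling genes followed by role. Of 18 genes of the TGF-beta pathway, 5 were higher and 1 was lower. Among the ligands, Tgfb3 was at 138, 165, 323 and 181 CPM against 40.9, 24.5, 64.1 and 33.2 CPM, while Tgfb1 was at 39.0, 57.6, 30.2 and 41.3 CPM against 22.5, 45.5, 30.7 and 44.9 CPM. Tgfbr3, a co-receptor, was the lower member, at 185, 72.0, 101 and 110 CPM against 447, 298, 274 and 302 CPM. The known pathway targets Pmepa1 and Ccn2 were on the higher side together with Ltbp2. Of 13 myofibroblast genes, those of the contractile fibroblast of scars, 4 were higher (Tagln, Myl9, Cdh11 and Runx1) and none lower. Tagln was at 556, 669, 484 and 517 CPM against 72.0, 80.6, 171 and 177 CPM. Summed markers of smooth muscle were at 1301, 1223, 1115 and 1046 CPM against 226, 239, 507 and 425 CPM in the other classes, and those of pericytes at 938, 460, 505 and 444 CPM against 243, 180, 366 and 331 CPM, with Myh11 at 0 by the rule. The part of smooth muscle RNA in the contractile genes was not tested. Of 6 genes of the Wnt pathway, 2 secreted inhibitors were higher, Frzb and Dkk3, and the ligand Wnt10b was lower, at 0, 7.2, 5.14 and 1.72 CPM against 61.1, 63.9, 44.8 and 65.6 CPM.

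Of 23 cytokine, chemokine and complement genes, 5 were lower and 1 was higher, with a median log2 ratio of -0.76. The lymphoid chemokine Cxcl13 was at 6.16, 0, 22.5 and 6.89 CPM against 458, 199, 349 and 145 CPM, the lowest median ratio among the 123 genes. Complement C3 was at 343, 360, 398 and 239 CPM against 2008, 1087, 1450 and 1203 CPM. The monocyte chemokine Ccl2 was at 39.0, 21.6, 31.5 and 24.1 CPM against 102, 133, 86.3 and 215 CPM. In each library these 3 genes were lower in the set B fibroblasts. Ugdh, which makes the UDP-glucuronate used for hyaluronan, was at 84.1, 108, 116 and 193 CPM against 1176, 1446, 1112 and 1380 CPM. Its mean over libraries was 1462 CPM in set A, 173 in set C and 378.5 in set D, against 125 in set B. Low Ugdh was thus nearly shared with set C. Pla1a, a phospholipase, was at 6.16, 14.4, 4.50 and 5.17 CPM against 237, 286, 166 and 228 CPM. The interferon list had no gene of 8 on either side, and the immediate early list had 1 of 21, Klf4, lower. Other cell types left a trace in the cells: B and plasma cell markers summed to 443, 7986, 4532 and 2136 CPM against 985, 2593, 2792 and 1753 CPM, with up to 350 UMIs of Ighm in 1 cell. Of the set B fibroblasts 560 (35.7%) had UMIs of at least 2 markers of some other type, erythrocytes left out, and of the other classes 1422 (29.2%). Summed erythrocyte markers were at 12160, 18412, 30050 and 22841 CPM in the set B fibroblasts and at 12730, 16537, 30085 and 22929 CPM in the other classes, higher in both TKO libraries. At least 2 erythrocyte markers had a UMI in 15.7%, 21.25%, 70.7% and 18.6% of the set B fibroblasts, and the part of this RNA in their shares was not tested. Without the cells with markers of other types, erythrocytes left out, the shares of set B fibroblasts were 5.69%, 8.66%, 27.2% and 22.2%.

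The makeup of the set B fibroblasts differed between the libraries. The 2 gene groups used here to describe it were picked after their values had been seen, so no test is given. One group, Dio2, Hhip, Rbp4, F3, Dpep1 and Smoc1, had at least 2 genes detected in 73.0%, 20%, 7.28% and 5.53% of the cells. The other, Tnc, Postn, Vcan, Tnmd, Col11a1 and Ecrg4, had at least 2 detected in 14.6%, 33.8%, 43.3% and 55.3%. Cre replicate 1 thus stood furthest from the other libraries in both. The Cre and TKO libraries did not overlap in either group, with Cre higher in the first and lower in the second. After thinning to 1000 UMIs the first shares were 56.8%, 13.8%, 3.53% and 3.02%, and the second 8.65%, 27.5%, 32.9% and 47.0%. In the other classes, unthinned, the first group was met in 24.4%, 4.50%, 6.04% and 4.12% of cells and the second in 15.4%, 13.3%, 24.9% and 18.1%. Dio2, the gene of the deiodinase that activates thyroid hormone, was at 757, 79.1, 67.5 and 24.1 CPM, and Hhip, a decoy receptor for hedgehog ligands, at 205, 57.6, 18.6 and 10.3 CPM. Postn, the gene of the matricellular protein periostin, was at 140, 763, 933 and 1447 CPM, and the proteoglycan gene Vcan at 55.4, 252, 336 and 145 CPM.

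**Figure D4:**
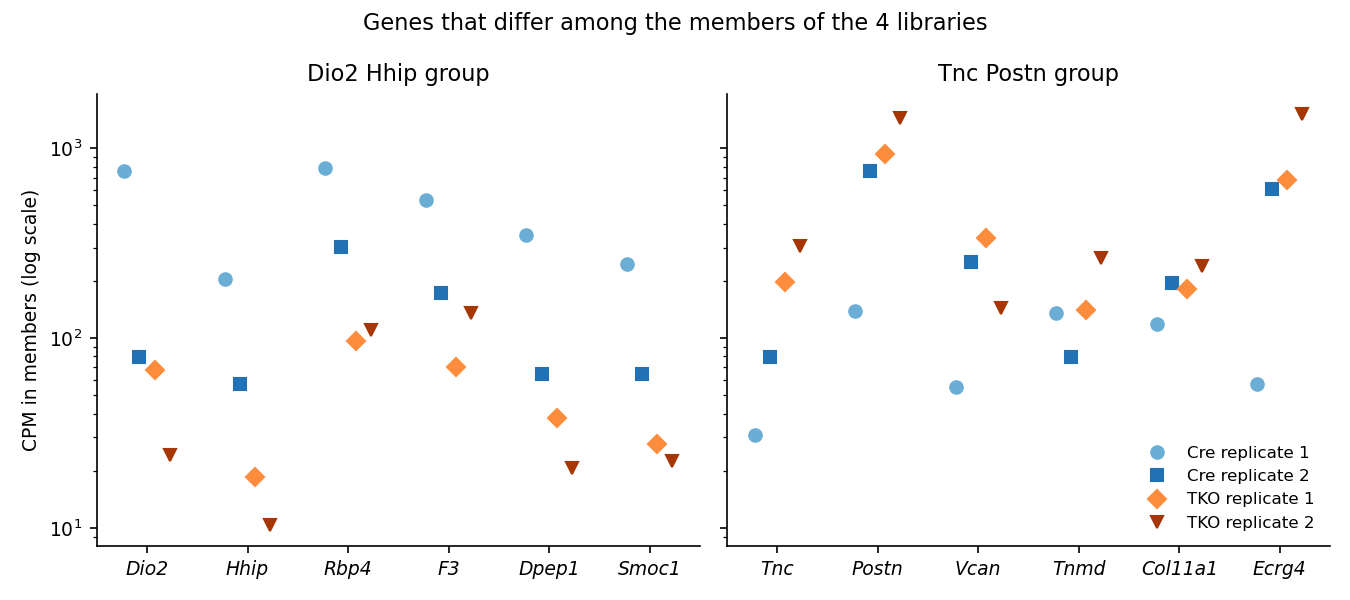
Level of each gene of the 2 gene groups (CPM of summed UMIs, logarithmic vertical axis) in the set B fibroblasts, 1 point for each of the 4 single-cell libraries. Cre replicate 1 is highest for each gene of the Dio2 group, and lowest for each gene of the Tnc group but Tnmd.

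Cells that met only the first group numbered 124, 15, 47 and 16, and those that met only the second 16, 26, 374 and 214. Thbs4 was at 18.1, 0, 0 and 44.4 CPM in the Dio2 group cells and at 5137, 919, 727 and 1016 CPM in the Tnc group cells. Scx was at 0, 0, 11.7 and 0 CPM in the former and 200, 85.5, 81.5 and 58.5 CPM in the latter. Thbs1 was at 145, 197, 58.2 and 178 CPM and at 6966, 2201, 1771 and 582 CPM. Set B fibroblasts with the Dio2 group therefore carried almost none of the tendon factor and of Thbs4, so the name tendon-like does not hold for most set B cells of Cre replicate 1. A further 34, 38, 467 and 162 cells met neither group, with Scx at 11.6, 15.5, 14.0 and 4.49 CPM. Thbs4 was at 535, 171, 185 and 157 CPM in them. They were 18.4%, 47.5%, 51.5% and 40.7% of the set B fibroblasts, so low Scx was not confined to Cre replicate 1. Between the Dio2 and Tnc groups elastin went the other way, at 4709, 865, 1689 and 400 CPM in the Dio2 group cells and at 0, 107, 739 and 465 CPM in the Tnc group cells, except in TKO replicate 2. Fmod was detected in both, at 848, 432, 548 and 755 CPM and at 10373, 1218, 1233 and 1395 CPM. Kera, the gene of the proteoglycan keratocan, had 103 UMIs in the set B fibroblasts of Cre replicate 1, 100 of them in its 16 Tnc group cells, and 0, 1 and 0 UMIs in those of the other libraries. Chad had 80 UMIs in these 16 cells and 6 UMIs in the 26 Tnc group cells of Cre replicate 2. In both Cre libraries it had 0 UMIs in the Dio2 group cells and in the cells of neither group. Without the cells that met the Dio2 group, the shares of set B fibroblasts were 2.08%, 6.30%, 26.1% and 20.7%.

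No gene passed the test between TKO and Cre within the set B fibroblasts. UMIs were summed per library and 6675 genes were tested by edgeR's quasi-likelihood test with Benjamini-Hochberg adjustment, of which 0 (0%) passed at 0.05 and 318 (4.76%) had an unadjusted p under 0.05. DESeq2 called 15. In simulated data at this depth the test recovered 69% of genes changed 4-fold and 0% of those changed 2-fold. The simulation assumed a dispersion that was not estimated from these libraries and changed no genes of low summed counts. Its rates therefore do not cover such genes. None of the 19 gene lists held a called gene. The genes with the smallest p are given as values that did not pass. Igfbp3, a carrier of insulin-like growth factors, was at 20.5, 28.8, 121 and 119 CPM (log2 fold change 2.37 ± 0.40 (SE), adjusted p = 0.162), and the TKO libraries lay above the Cre libraries. Kcnma1, a calcium-activated potassium channel gene, was at 16.4, 36.0, 151 and 112 CPM (2.56 ± 0.46, adjusted p = 0.182). Fgf18, a growth factor of cartilage and bone, was at 10.3, 14.4, 81.0 and 53.4 CPM (2.57 ± 0.49, adjusted p = 0.191). Scg2, the gene of secretogranin 2, had 0, 0, 63 and 30 UMIs, which is 0, 0, 40.5 and 51.7 CPM. Ccl21a, a chemokine gene whose near-identical copies can share reads and make its count uncertain, was at 8.21, 0, 145 and 65.5 CPM.

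On the other side, the collagen IV gene Col4a3 was at 111, 50.4, 8.36 and 5.17 CPM (log2 fold change -3.61 ± 0.46 (SE), adjusted p = 0.0686 by the same test). Upk3b, a marker of mesothelium, was at 119, 72.0, 11.6 and 10.3 CPM (-3.20 ± 0.39, adjusted p = 0.0686), and 6 cells held its 58 UMIs in Cre replicate 1. Hhip had a log2 fold change of -3.24 ± 0.52 (adjusted p = 0.162). Summed mesothelial markers were at 216, 158, 30.9 and 31.01 CPM in the set B fibroblasts and at 346, 181, 63.7 and 204 CPM in the other classes, and their part in these values was not tested. Ctrb1 and Rnase1, genes of pancreatic enzymes, had 151, 3, 0 and 0 and 32, 3, 0 and 0 UMIs. Of the 185 set B fibroblasts of Cre replicate 1, 89 had a UMI of Ctrb1 and 60 of the pancreatic lipase gene Pnlip. Col4a3 and Hhip were highest in Cre replicate 1, the library in which most cells met the Dio2 group. Among list genes, Tnc (log2 fold change 2.39, adjusted p = 0.254), Col8a2 (1.92, adjusted p = 0.254) and Tnxb (-1.50, adjusted p = 0.259) did not pass either.

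Whether TKO and Cre differed in another way in the set B fibroblasts than in the other classes was tested as an interaction, in 1 edgeR quasi-likelihood fit with the library as a block. Of 10194 genes 67 (0.657%) passed, 7 of them (0.0687%) with the higher and 60 (0.589%) with the lower TKO effect in the set B fibroblasts. With the higher effect, Igfbp3 (log2 difference of effects 2.51 ± 0.39 (SE), adjusted p = 0.00203) was at 62.0, 56.0, 48.6 and 65.6 CPM in the other classes, where the genotypes overlapped, and at the levels given above in the set B fibroblasts. Fgf18 (2.62 ± 0.52, adjusted p = 0.0163) was at 26.8, 17.5, 31.6 and 13.3 CPM in the others. Tmem100, which encodes a small membrane protein of BMP signalling in endothelium, was at 20.5, 64.8, 142 and 169 CPM in the set B fibroblasts and at 669, 555, 645 and 493 CPM in the others (2.37 ± 0.42, adjusted p = 0.00621). Fndc1 was at 119, 165, 317 and 465 CPM and at 514, 594, 501 and 645 CPM (1.42 ± 0.25, adjusted p = 0.0065). In these 4 genes the set B fibroblasts of both TKO libraries lay above those of both Cre libraries.

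With the lower effect, Dio2 (log2 difference of effects -3.26 ± 0.34 (SE), adjusted p = 9e-05 by the same fit) was at 50.9, 3.50, 45.3 and 9.14 CPM in the other classes. Sost, an inhibitor of Wnt signalling best known from bone, was at 135, 36.0, 24.4 and 15.5 CPM in the set B fibroblasts and at 9.18, 10.5, 24.1 and 17.4 CPM in the others (-3.60 ± 0.49, adjusted p = 0.000814). Col11a1 differed through the other classes, where it was 0.548 and 0.876 CPM in Cre and 10.4 and 9.14 CPM in TKO, while the set B fibroblasts overlapped between genotypes (-3.30 ± 0.55, adjusted p = 0.0042). These levels in the other classes were low, and the part of free RNA in them was not tested. Smoc1 and Ccdc3 were at 246, 64.8, 27.6 and 22.4 CPM and at 388, 72.0, 75.9 and 87.8 CPM in the set B fibroblasts, both highest in Cre replicate 1. Without that library 69 genes passed, 22 of them among the 67. Of the 17 interaction genes named here and below, 14 no longer passed without it, and Ccl21a, Fndc1 and Dio2 did. Without the cells that met the Dio2 group 29 genes passed, 15 of them among the 67. Dio2, Hhip and Smoc1 belong to that group and are among the 67. The drop was therefore in part set by the choice of cells and is no test of the calls.

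The bulk libraries were read for the same genes, as samples that had no part in choosing the cells. In bulk RNA, fewer cells of a type and less RNA per cell cannot be told apart. In isolated aortic fibroblasts 10 of 15673 genes (0.0638%) passed between TKO and Cre by edgeR's quasi-likelihood test with Benjamini-Hochberg adjustment, none of them a set B gene. Fmod was at 8.08, 7.91 and 7.28 CPM in Cre and at 15.8, 12.02 and 13.9 CPM in TKO (log2 fold change 0.84 ± 0.13 (SE), adjusted p = 0.114). Cpxm2 was at 9.31, 6.57 and 9.19 CPM in Cre and at 16.9, 25.4 and 18.7 CPM in TKO (1.28 ± 0.19, adjusted p = 0.0949). Comp was at 16.1, 14.7 and 15.8 CPM and at 26.3, 18.7 and 23.4 CPM (0.55 ± 0.13, adjusted p = 0.230), and Col8a1 at 208, 124 and 176 CPM and at 293, 310 and 311 CPM (0.85 ± 0.17, adjusted p = 0.208). In these 4 of 5 genes every TKO library lay above every Cre library, which was so for 8.86% of all genes. Thbs4 overlapped, at 20.2, 15.3 and 32.7 CPM against 38.9, 14.9 and 28.0 CPM. Of the 25 leading genes 24 were tested, 21 had a positive fold change, against 51.9% of all genes, and the median log2 fold change was 0.39 against 0.01. Acan, taken up after its values were seen, was at 0.187, 0.0311 and 0.173 CPM in Cre and at 0.684, 1.29 and 0.993 CPM in TKO (adjusted p = 0.179).

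In whole non-stripped aorta 18 of 15162 genes (0.119%) passed, again none of set B. Thbs4 was at 6.13, 7.66 and 8.50 CPM in Cre and at 12.9, 21.0 and 35.2 CPM in TKO (log2 fold change 1.63 ± 0.33 (SE), adjusted p = 0.077 by edgeR), without overlap. Fmod was at 10.5, 10.5 and 14.3 CPM against 12.1, 9.66 and 10.3 CPM (-0.14 ± 0.16, adjusted p = 0.658), and Col8a1 at 9.81, 10.1 and 10.9 CPM against 9.74, 11.8 and 11.9 CPM. Comp and Thbs4 were the 2 set B genes whose groups did not overlap, with TKO higher, against 14.9% of all genes. Of 23 leading genes 13 had a positive fold change, with a median of 0.08. The larger share of set B fibroblasts in the single-cell TKO libraries was therefore not matched by a higher Fmod level in these bulk libraries of the same tissue. In stripped aorta, with 4 of 16688 genes (0.024%) past the threshold, Fmod was at 1467, 1242, 806 and 1114 CPM in Cre and at 1417 and 617 CPM in TKO (-0.19 ± 0.35, adjusted p = 0.848). Comp was at 1563, 1170, 620 and 1357 CPM against 2488 and 1154 CPM, and Thbs4 at 148, 376, 55.4 and 249.2 CPM against 318 and 165 CPM. None of the 5 genes separated the genotypes there, against 12% of all genes with every TKO library higher and 11.6% with every TKO library lower. The tables were normalised separately, so levels are not compared between them by a test, but Fmod was at 617 CPM or more in each stripped library and at 14.3 CPM or less in each non-stripped Cre or TKO library without antibody.

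**Figure D5:**
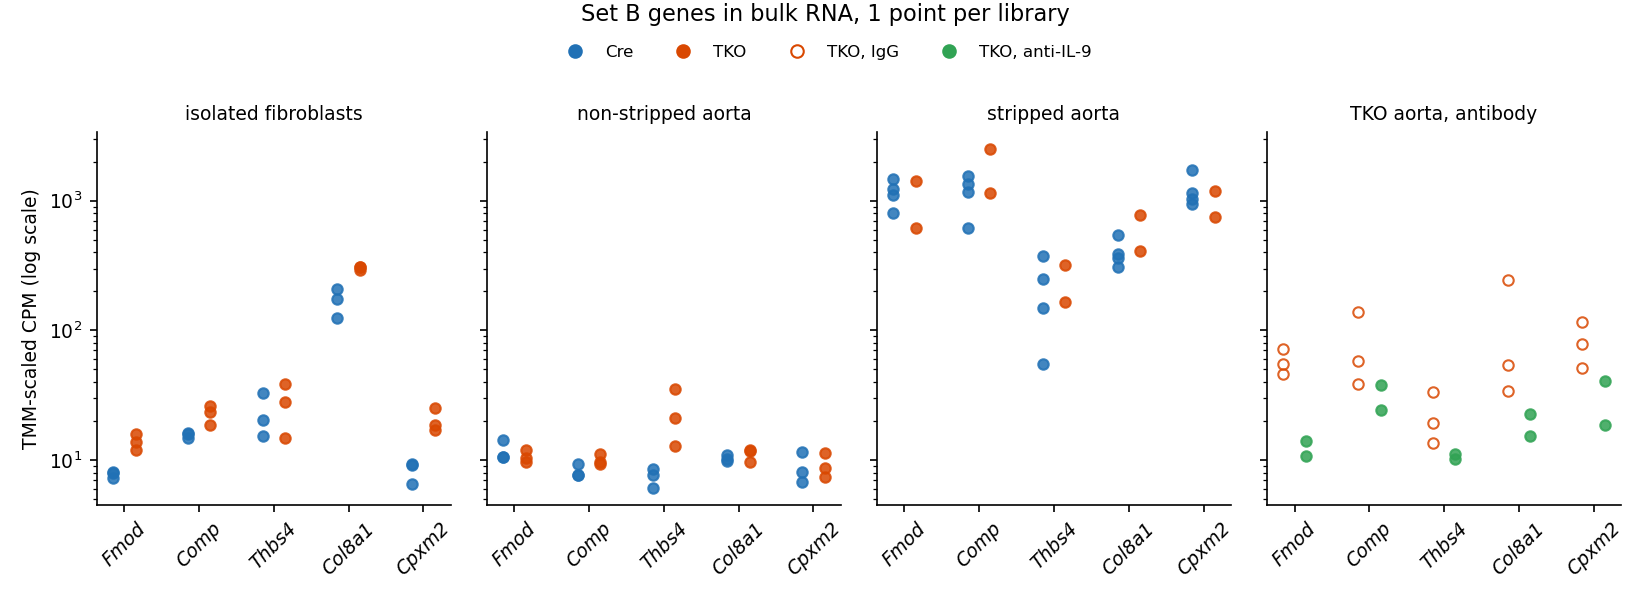
Level of the 5 set B genes (CPM, logarithmic axis) in each bulk library, by tissue and group. In the non-stripped TKO aorta, the 2 libraries with the antibody against IL-9 lie below the 3 with control IgG for each gene, and in isolated fibroblasts the TKO libraries lie above the Cre libraries for each gene but Thbs4.

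The set B genes were lower in TKO aorta given the antibody against IL-9 than in that given control IgG, with Fmod and Cpxm2 past the threshold. In this comparison 5277 of 16463 genes (32.1%) passed, 21% higher and 11% lower, so a call is common here. Fmod was at 46.3, 72.2 and 54.7 CPM with IgG and at 13.9 and 10.7 CPM with the antibody (log2 fold change -2.23 ± 0.23 (SE), adjusted p = 0.000534, edgeR's quasi-likelihood test). It passed without each library in turn, at -2.45 to -2.05. Cpxm2 was at 51.6, 117 and 78.5 CPM against 40.4 and 18.6 CPM (-1.47 ± 0.43, adjusted p = 0.0367). Its call was lost without IgG replicate 2 (-1.15, adjusted p = 0.0531), without IgG replicate 3 (adjusted p = 0.0818) and without antibody replicate 2 (-1.04, adjusted p = 0.139). Comp was at 58.1, 140 and 38.4 CPM against 38.1 and 24.3 CPM (-1.33 ± 0.53, adjusted p = 0.0988), and Thbs4 at 13.5, 33.8 and 19.4 CPM against 11.2 and 10.2 CPM (-1.06 ± 0.37, adjusted p = 0.0653). Col8a1 was at 34.3, 246 and 54.2 CPM against 22.7 and 15.3 CPM (-2.55 ± 0.85, adjusted p = 0.059). All 5 genes were lower without overlap, as were 27.7% of all genes, and IgG replicate 2 was the highest library for each. Without that library the log2 fold change was -1.23 for Col8a1 (adjusted p = 0.0143) and -0.65 for Comp. Each IgG library lay above the Fmod and Col8a1 levels given earlier for non-stripped TKO aorta that received neither IgG nor the antibody. For Fmod the libraries with the antibody against IL-9 were near those levels. The tables were normalised separately, and the cause of the higher IgG levels was not tested.

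Of the 25 leading genes, 5 fell and 2 rose past the threshold with the antibody, where 11% of all genes fell and 21% rose. Calls were thus not more common among the leading genes as a whole. Their median log2 fold change was -0.41 against -0.01 over all genes. Those that fell were Mfap4 (log2 fold change -1.65, adjusted p = 0.030), Pdgfrl (-1.57, adjusted p = 0.0153), Mgp (-0.95, adjusted p = 0.024), Clec11a (-1.60, adjusted p = 0.046) and the collagen gene Col8a2 (-2.17, adjusted p = 0.0305), all by edgeR's test. Each of these 5 lost its call when either antibody library was left out, and Mgp, Clec11a and Col8a2 also without IgG replicate 3 (adjusted p = 0.0570, 0.0533 and 0.0577). Those that rose were Tagln, at 75.6, 62.1 and 50.5 CPM with IgG and 151 and 145 CPM with the antibody (1.24 ± 0.18, adjusted p = 0.00214), and Kcnma1 (1.11 ± 0.30, adjusted p = 0.0294). The Kcnma1 call was lost without IgG replicate 1 (adjusted p = 0.0513), IgG replicate 3 (0.0772) or either antibody library (0.127 and 0.0653). Scx, which was taken up after its values were seen, rose as well, from 1.11, 1.48 and 1.07 CPM to 5.13 and 4.87 CPM (2.02 ± 0.28, adjusted p = 0.0019). The tendon factor and the proteoglycan Fmod thus went in opposite directions in these libraries. Of the 6 genes of the first makeup group, Rbp4 (-0.87, adjusted p = 0.00252), Dpep1 (-1.10, adjusted p = 0.00842) and Smoc1 (-0.53, adjusted p = 0.0229) fell, while Dio2 (0.0058, adjusted p = 0.991), Hhip (0.069, adjusted p = 0.947) and F3 (-0.22, adjusted p = 0.3601) did not pass. None of the second group passed, with log2 fold changes of -2.57 for Tnmd (adjusted p = 0.0993), -1.67 for Vcan (0.127), -1.31 for Postn (0.0846), -0.41 for Ecrg4, -0.20 for Tnc and 0.27 for Col11a1 (0.678 to 0.812 for these 3). Dpep1 lost its call without antibody replicate 1 (adjusted p = 0.0552), and Smoc1 without IgG replicate 1 (0.0637) or antibody replicate 2 (0.0840). Among the genes low in the set B fibroblasts, Pla1a fell (-1.72, adjusted p = 0.000269) and Cadm3, an adhesion gene, rose (2.47, adjusted p = 0.000179). Tagln, Scx, Rbp4, Pla1a and Cadm3 passed without each library in turn.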

How the data were processed

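Bulk RNA sequencing covered 23 libraries in 4 tables and single-cell RNA sequencing 4 libraries, with groups taken from what the labels give as genotype, treatment and tissue. For bulk, the authors deposited a raw count for each gene symbol and library. STAR 2.5.2b, Subread 1.5.2, featureCounts, Trimmomatic 0.36 and GRCm38 are named for them in the submitters' processing notes, while strand setting and annotation are not given there. For single cells, the authors deposited matrices of UMI counts, which per the file headers are output of Cell Ranger 6.0.0. Left out were 1 bulk column that matches no label and a row with no gene name, at most 0.0025% of a library.

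UMIs were summed per library over the set B fibroblasts and over the cells of sets A, C and D, and CPM of single-cell sums are scaled to those sums. Tests used edgeR 4.0.16 in R 4.3.3 (filterByExpr with a minimum count of 10, TMM factors, quasi-likelihood fit, Benjamini-Hochberg adjustment at 0.05), each bulk comparison within its own table, whose CPM carry the TMM factors. The test was tried on simulated data first. Shares were compared by exact permutation over libraries. Doublets were not called, and an alternative removed cells above the 95th percentile of UMIs. Other alternatives were RLE factors, DESeq2 1.42.0, no filter on low counts, each library left out, the replicate number as a block, at least 3 set B genes, cells thinned to 1000 UMIs, at most 10% mitochondrial UMIs and no shared barcodes. Removal of cells with markers of another type, and of cells with the Dio2 group, was chosen after seeing the data. Genes of the Dio2 group are among those called in the interaction, so its count without these cells is no test of the calls.

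The members and lists were chosen with earlier results of these data known, so no list is independent evidence. Some list members are counted in their lists but not reported by name here. Named genes are the set B genes, Klf10 and Il9r; for both single-cell tests, up to 12 genes per direction with the largest change among those called, with a mean of at least 20 CPM and no overlap between genotypes, or the 5 with the smallest p where fewer than 5 passed; the 25 highest and 10 lowest genes against the other classes; up to 4 members of a described list; and, in bulk, the set B and leading genes. Outside this rule, the genes of both makeup groups, Il9, Kera and Pnlip, and Scx and Acan in bulk, were chosen after their values were seen.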

Additional observations from a re-analysis of the deposited data

Results flagged for a closer look

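The effect of TKO differed between the set B fibroblasts and the other fibroblast classes for the following genes, by the interaction test. The log2 difference of effects was above 0 for Ccl21a (3.00), Fgf18 (2.62), Igfbp3 (2.51), Tmem100 (2.37) and Fndc1 (1.42). It was below 0 for Pex5l (-4.25), Adamtsl2 (-3.63), Sost (-3.60), Col11a1 (-3.30), Dio2 (-3.26), Col4a3 (-3.12), Hhip (-3.04), Smoc1 (-2.81), Ccdc3 (-2.60), Lmcd1 (-2.44), Prex2 (-2.37) and Fblim1 (-2.36). Adjusted p ran from 9e-05 (Dio2) to 0.0475 (Ccl21a) by edgeR's quasi-likelihood test. Fblim1 was at 0.36 without the cells that met the Dio2 group.

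A pair of genes had 1 library far from the others of its group. Stripped Cre replicate 1 had Ccn4, a matricellular gene, at 51.2 CPM against 44.2 to 45.3 CPM in the other stripped Cre libraries, and Dact2 at 22.5 CPM against 10.9 to 11.8 CPM. In all 43 groups of 4 libraries were looked at, and chance marks about 1 in 20.

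Cells outside the gate also met the set B count. Among cells with a Myh11 UMI, the share was 2.42%, 1.30%, 9.02% and 6.15% in the order used above, at median depths of 3444, 1747, 1666.5 and 1512 UMIs. Among cells with a Ptprc UMI it was 0.143%, 0.231%, 1.40% and 0.600%. Both kinds had the higher shares in the TKO libraries.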

How the results depend on the processing

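The higher share of set B fibroblasts in TKO kept its direction under every alternative run, with a difference of 14.3 to 19.8 percentage points when each library was left out. Counts of called genes depended on the setting. Between TKO and Cre within the set B fibroblasts, 0 genes became 1 with at most 10% mitochondrial UMIs, 2 without shared barcodes, 4 without cells with markers of another type, 3 without cells that met the Dio2 group, 139 with no filter on low counts, 15 with DESeq2 and 20 to 331 when 1 library was left out. The labels do not say that a replicate number pairs libraries. With 2 libraries per genotype, their deviations from the genotype mean mirror each other. The correlation of same-numbered libraries, 0.251, is therefore a single value, and -0.251 with the numbers crossed. It cannot decide whether libraries are paired. With the replicate number as a block (replicate block) 101 genes passed. The interaction count of 67 became 29 without cells that met the Dio2 group, 114 with no filter, 19 with DESeq2 and 34 to 247 without 1 library. With no filter and with DESeq2, isolated fibroblasts gave 682 and 424 genes in place of 10, non-stripped aorta 766 and 801 in place of 18, and stripped aorta 64 and 536 in place of 4. When 1 library was left out the ranges were 3 to 10, 0 to 486 and 0 to 30, and 3516 to 4793 for the antibody comparison. With all gated cells outside set B as the comparison, 100 genes were higher or lower than 2-fold in place of 195.

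Values that changed sign were Klf10 in the set B fibroblasts (-0.33 with at least 3 set B genes) and Fblim1 in the interaction (0.36 without cells that met the Dio2 group). Ranges over libraries left out crossed 0 for Thbs4 in isolated fibroblasts (-0.080 to 0.62), for Fmod (-0.24 to 0.017), Cpxm2 (-0.12 to 0.30) and Scx (-0.28 to 0.93) in non-stripped aorta, and for Fmod (-0.91 to 0.29), Comp (-0.030 to 1.08) and Thbs4 (-0.33 to 0.68) in stripped aorta. The cause of these changes was not tested. Of the other values for single genes, 583 kept their direction and side of the threshold, 106 came to pass it and 92 no longer passed. The 80 set B fibroblasts of Cre replicate 2 held 138985 UMIs in all, which limits the precision for genes of low level.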

Other observations

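Among receptors of vasoactive peptides, the endothelin receptor gene Ednra was at 73.9, 64.8, 90.6 and 150 CPM in the set B fibroblasts against 16.0, 18.4, 37.3 and 41.5 CPM in the other classes, and the natriuretic peptide receptor gene Npr3 at 94.4, 21.6, 43.1 and 46.5 CPM against 15.5, 7.004, 17.9 and 9.97 CPM. The main angiotensin II receptor gene Agtr1a was at 0, 0, 2.57 and 6.89 CPM against 17.7, 13.1, 7.07 and 14.95 CPM. Timp1, an inhibitor of matrix proteases, was at 741 CPM in Cre replicate 2 and at 109 to 162 CPM in the other libraries. Spp1, the gene of osteopontin, was at 90.3, 144, 16.1 and 32.7 CPM.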
